A study of Saccharomyces cerevisiae with 12 samples.

Results

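The genes described here encode RNA polymerases I and III of budding yeast, the initiation factors that bring these enzymes to their promoters and the repressor of polymerase III, 41 genes of the 5085 in the deposited tables. They were chosen by symbol, from the known composition of the complexes, and all 41 were found and tested at every dose. By role they comprise 7 subunits found only in polymerase I, 10 found only in polymerase III, 2 shared by these enzymes, 5 shared by all 3 nuclear polymerases, 8 factors of polymerase I initiation, 8 of polymerase III initiation and MAF1. The cells were 1 haploid MATa strain, TH_5234, in log phase, whose genotype is given as his3-1, leu2-0 and met15-0, with the promoter of RAP1 replaced by a kanR-marked tetO7 cassette with a TATA element and a tTA activator under a CMV promoter placed at URA3. Control cells carry these alleles too, so that all groups share them and differ in the label only by doxycycline, which releases the tTA activator. There were 3 samples each of the control and of 0.01, 0.1 and 0.5 µg/mL doxycycline, 12 in all, and polyA RNA was sequenced. Rap1 binds DNA at telomeres and at many promoters, those of most ribosomal protein genes among them, and yeast cannot live without it. The comparisons ask how mRNA levels change with the dose of doxycycline, and RAP1 mRNA itself was called lower at the highest dose alone. No strain without the tetO7 cassette was treated, so effects of doxycycline itself cannot be told apart from those through RAP1.

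RNA polymerase I transcribes the large ribosomal RNA precursor from the rDNA repeats, and RNA polymerase III transcribes transfer RNAs, 5S rRNA and other small RNAs. Both enzymes share a core with RNA polymerase II and carry extra subunits that act like built-in initiation and elongation factors. At the rDNA promoter, the upstream activating factor and the core factor bind DNA and recruit polymerase I that carries Rrn3. On polymerase III genes, TFIIIC binds the internal promoter and places TFIIIB, and Maf1 represses the enzyme under stress. Growing yeast spends much of its transcription on these products, and the genes of both enzymes belong to the ribosome biogenesis regulon. Many promoters of that regulon carry the PAC element, named for polymerases A and C (the older names of I and III), which the repressors Tod6 and Dot6 bind, and the RRPE element, which Stb3 binds.

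PAC was defined on genes of this kind, so its presence upstream of them is background and not a result of these data. The sites are shown since the members with and without them are set side by side below. The window ran from 250 bases before to 50 bases after the start codon in R64, and PAC was searched as GATGAG and RRPE as AAAATTTT, on both strands. PAC was found in 23 of 41 windows, which is 56.1%, against 20.2% of the 5010 windows of all measured protein-coding genes. By role it was in 6 of 7 windows of polymerase I subunits, 8 of 10 of polymerase III subunits, both genes shared by these enzymes and 6 of 8 of polymerase I factors. It was in 1 of 8 windows of polymerase III initiation factors (TFC6), in 0 of the 5 genes shared by all 3 polymerases and not in that of MAF1. RRPE was found in 16 of 41 windows (39.0%), against 9.88% of all windows, and 6 of 7 polymerase I subunit genes had both motifs. A match at the start codon itself holds the ATG, as in RRN9, whose only match begins at base -1. In the 250 bases before the start codon alone, PAC was in 22 of 41 windows, or 53.7%, against 16.8% of all. The sites of 10 members follow, each read on the strand of the motif with 1 PAC match in capitals. The stretches of RPA190, RPA135 and RRN11 also hold overlapping matches, left in lower case.
RPA190 (chrXV:960808-960837): acctttttaagaGATGAGatgagatttgaa
RPA135 (chrXVI:581283-581312): gaataattaagaGATGAGatgagtctctaa
RPA49 (chrXIV:182721-182750): attttttattgcGATGAGctgaaattttcc
RPA34 (chrX:140315-140344): aaaaattttatcGATGAGcattgaatagct
RPO31 (chrXV:544226-544255): taaccaaccagtGATGAGtttaaaaattta
RET1 (chrXV:733569-733598): ttgtaattgtgaGATGAGctgaaaattttt
RPC31 (chrXIV:348587-348616): ataggttgctgcGATGAGgaaactattttc
RPC40 (chrXVI:746901-746930): aaaaattattgcGATGAGttgaaagaaaaa
RRN3 (chrXI:208061-208090): aaaagatattttGATGAGcatctctcgttt
RRN11 (chrXIII:191929-191958): tatatcatctgaGATGAGatgagatgagat

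Of the 41 windows, 1 held the Rap1 consensus with at most 1 mismatch, that of RPA43, which encodes a stalk subunit of polymerase I. All measured protein-coding genes had such a match in 1.52% of windows. In RPA43 the 13 bases of the match, with 1 mismatch, follow directly on PAC, with 0 bases between, and both are in capitals in the stretch below. RPA43 and RPA190 lie head to head, 804 bp apart, so that the stretch stands between these start codons.
RPA43 (chrXV:960334-960376, minus strand): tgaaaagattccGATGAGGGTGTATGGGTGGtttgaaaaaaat

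Whole windows are shown for the largest subunit of each enzyme and for a subunit gene and an initiation factor gene with neither motif, RPC17 and BRF1. Capitals mark PAC on either strand and RRPE. Start codons begin at base 251 of each window.
RPA190 (chrXV:960737-961036, plus strand): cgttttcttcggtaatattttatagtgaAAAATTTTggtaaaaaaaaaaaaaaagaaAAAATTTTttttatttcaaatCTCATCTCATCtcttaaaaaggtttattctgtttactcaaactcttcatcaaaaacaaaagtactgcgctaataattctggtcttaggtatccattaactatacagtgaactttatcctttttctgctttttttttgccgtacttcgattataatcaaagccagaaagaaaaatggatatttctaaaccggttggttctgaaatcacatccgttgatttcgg
RPO31 (chrXV:544096-544395, minus strand): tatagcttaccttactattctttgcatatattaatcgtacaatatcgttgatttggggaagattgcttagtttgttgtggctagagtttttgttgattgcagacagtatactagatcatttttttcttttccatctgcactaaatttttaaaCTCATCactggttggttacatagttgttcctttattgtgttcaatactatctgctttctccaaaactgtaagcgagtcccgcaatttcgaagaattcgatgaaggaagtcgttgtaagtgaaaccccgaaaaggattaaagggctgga
RPC17 (chrX:414721-415020, minus strand): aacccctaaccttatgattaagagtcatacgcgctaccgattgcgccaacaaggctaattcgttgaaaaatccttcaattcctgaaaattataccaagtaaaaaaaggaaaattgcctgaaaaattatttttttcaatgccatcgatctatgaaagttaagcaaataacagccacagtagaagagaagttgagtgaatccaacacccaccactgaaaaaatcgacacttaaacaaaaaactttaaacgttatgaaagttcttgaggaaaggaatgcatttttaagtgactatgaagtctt
BRF1 (chrVII:984223-984522, minus strand): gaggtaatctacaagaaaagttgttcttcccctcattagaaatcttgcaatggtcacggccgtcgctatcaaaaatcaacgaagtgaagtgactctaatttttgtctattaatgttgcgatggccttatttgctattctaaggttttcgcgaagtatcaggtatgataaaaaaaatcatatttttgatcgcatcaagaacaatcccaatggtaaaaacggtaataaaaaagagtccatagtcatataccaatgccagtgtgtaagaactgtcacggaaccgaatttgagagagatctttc

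**Figure D1:**
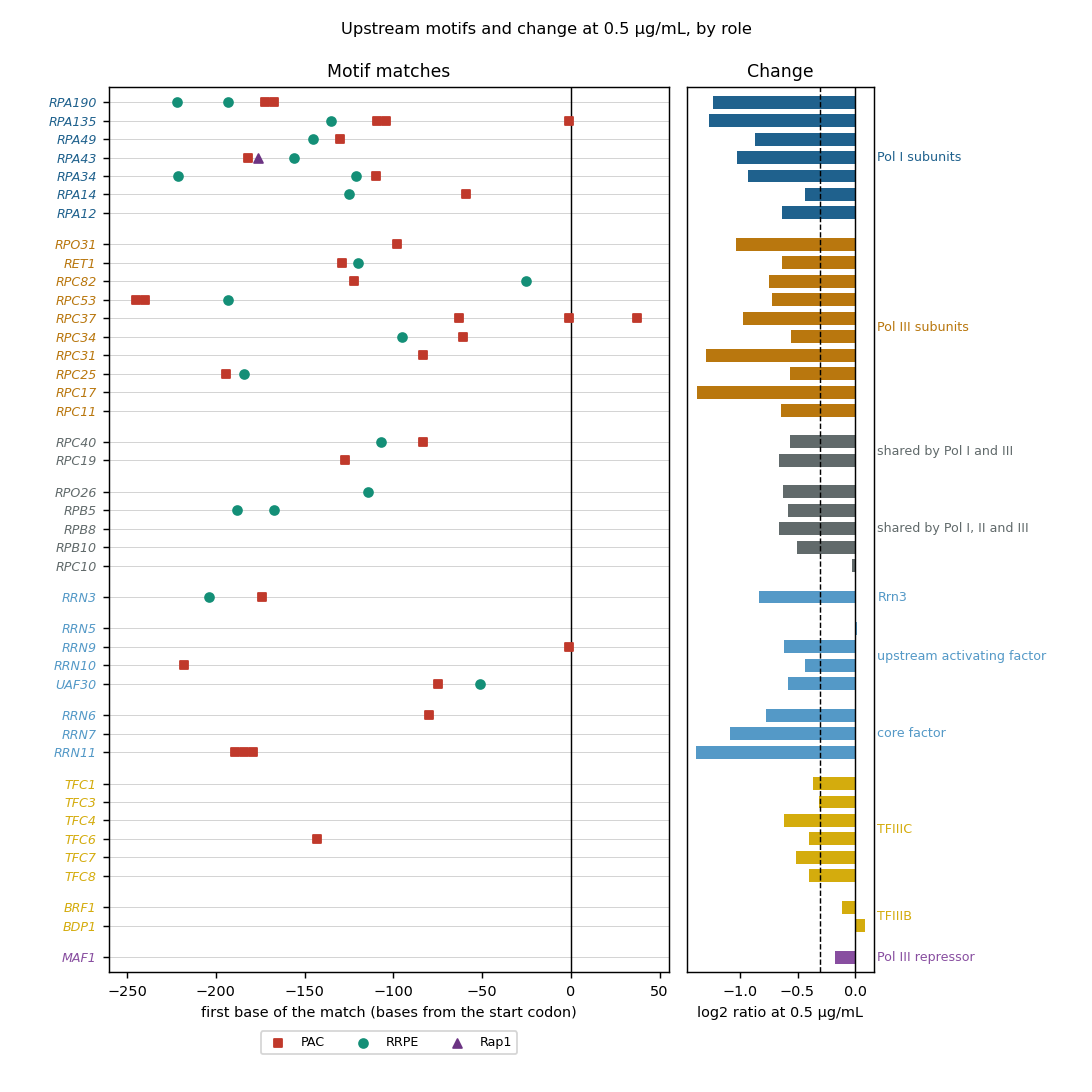
Left, the first base of each match to PAC, RRPE and the Rap1 consensus in bases from the start codon, with 1 line per member. Right, the log2 ratio of 0.5 µg/mL doxycycline over control as bars coloured by role, with the median of all tested genes (-0.30) dashed; PAC lies upstream of 6 of 7 polymerase I and 8 of 10 polymerase III subunit genes and of 1 of 8 polymerase III initiation factor genes.

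Values below come from 3 tables of the authors, each setting the control against 1 dose, with 1 level per group pooled over its 3 samples, in FPKM, a level scaled to transcript length and library depth. Values per sample are not used here, so no SD can be given, and the depth is unknown. The log2 ratio is dose over control within a table, and a gene was called lower or higher where the authors' q, their adjusted p from Cuffdiff, was below 0.05. All 3 tables use the same control samples. Over all genes, 15.4% of 5049 tested genes were called lower at 0.01 µg/mL, 20.4% of 5054 at 0.1 µg/mL and 38.9% of 5047 at 0.5 µg/mL, with 8.75%, 17.6% and 7.49% called higher and 24.2%, 38% and 46.4% called in either direction. The median log2 ratio of all tested genes was -0.08, -0.03 and -0.30, so that the highest dose has to be read against a general shift. RAP1 itself was at log2 ratios of 0.07, -0.02 and -0.52 with calls of the authors' deposited tables at the top dose alone (q = 0.827, 0.935 and 0.00764). LEU2 and MET17 (also called MET15), mutant per the labels, were listed at 0 in all 6 pooled levels.

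The machinery moved down. Of the 41 genes, 17 fell at 0.01 µg/mL (the background is 15.4%), 18 fell at 0.1 µg/mL (20.4%) and 33 fell at 0.5 µg/mL (38.9%), and 1 gene, RRN5, rose, at 0.1 µg/mL (17.6%). In these bulk samples fewer cells of a kind and less RNA per cell cannot be told apart. The median log2 ratio of the 41 was -0.33, -0.32 and -0.63, or -0.25, -0.29 and -0.32 relative to the median of all tested genes. The roles differed in these counts. Subunits of polymerase I fell in 6, 6 and 7 of 7 cases and those of polymerase III in 6, 6 and 10 of 10. Shared subunits fell in 2, 2 and 6 of 7 cases, factors of polymerase I in 3, 4 and 6 of 8, and factors of polymerase III in 0, 0 and 4 of 8. Group medians of log2 ratios ranged at 0.5 µg/mL from -0.93 for polymerase I subunits to -0.38 for polymerase III factors. No test between groups of genes was made, since members are not replicates.

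**Figure D2:**
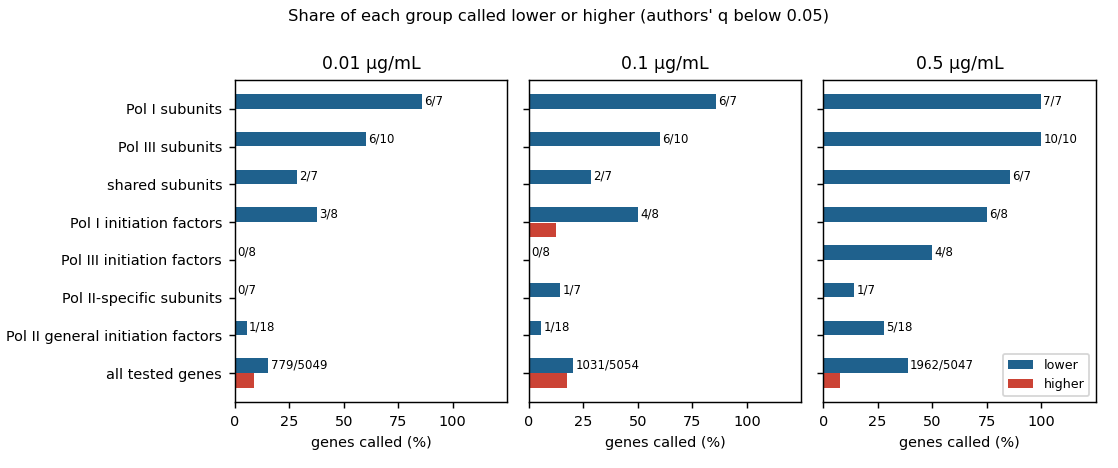
Percent of genes in each group called lower (blue) or higher (red) at each dose, with the count called lower over the count tested beside each bar. All 7 polymerase I subunit genes and all 10 of polymerase III were called lower at 0.5 µg/mL, where 38.9% of all tested genes were, and 1 of 7 subunits found only in polymerase II.

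**Figure D3:**
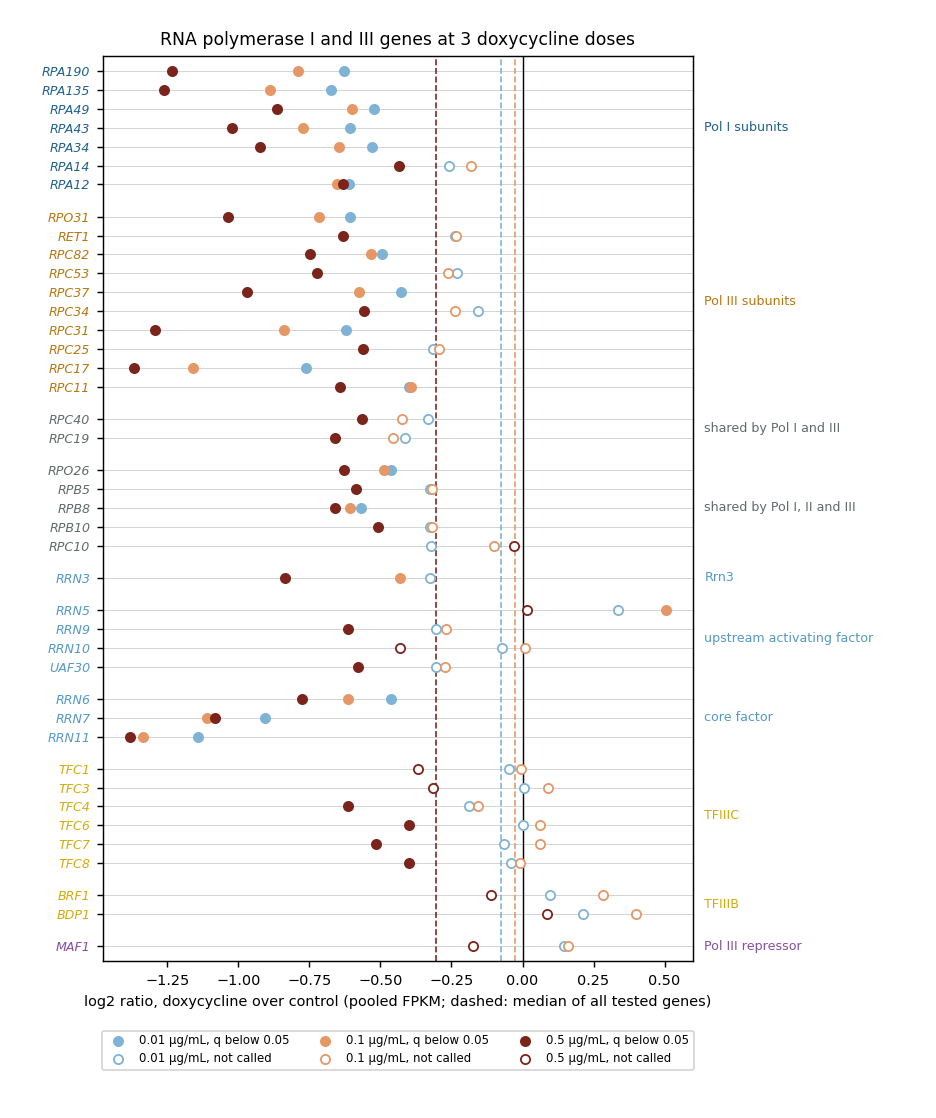
Log2 ratio of doxycycline over control of each member, ordered by role, at 3 doses. Filled points have a q below 0.05, open points do not, the solid line is no change and dashed lines are the medians of all tested genes (-0.08, -0.03 and -0.30); RRN5 is the only filled point to the right of 0.

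Both large subunits of polymerase I, which form the active centre, fell at every dose. RPA190 (YOR341W, chrXV:960987-965981, plus strand) encodes the largest subunit and was at 159 FPKM in the control and 103, 91.8 and 67.4 FPKM at the rising doses. Its log2 ratios were -0.63, -0.79 and -1.23 (q = 0.0181, 0.000329 and 0.000273 in the authors' deposited tables), and at the top dose 42.5% of the control level was left. RPA135 (YPR010C, chrXVI:577585-581196, minus strand), the second largest subunit, was at 324 FPKM in the control and 203, 175 and 134 FPKM at the rising doses. Its log2 ratios of -0.67, -0.89 and -1.26 (q = 0.0223, 0.000615 and 0.000273 in the authors' deposited tables) were close to those of RPA190 at each dose, and RPA135 had the largest fall of the 7 at 0.5 µg/mL. RPA43, which carries the contact for Rrn3, fell with log2 ratios of -0.61, -0.77 and -1.02, next to RPA190 with which it shares its upstream region.

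The pair of RPA49 and RPA34, a built-in module resembling TFIIF, also fell throughout, with log2 ratios of -0.52, -0.60 and -0.86 for RPA49 and -0.53, -0.64 and -0.93 for RPA34. RPA34 had the highest control level of the subunits found only in polymerase I, at 653 FPKM, and was at 452, 416 and 342 FPKM with doxycycline. RPA12, whose zinc ribbon supports RNA cleavage, was lower by nearly the same amount at each dose: its level was 539 FPKM in the control and 353, 342 and 347 FPKM at the rising doses and its log2 ratios -0.61, -0.65 and -0.63 (q = 0.00161, 0.000615 and 0.00193 in the authors' deposited tables). Relative to the median of all tested genes its ratio was -0.54, -0.62 and -0.33. RPA14, the small stalk subunit, had the smallest changes of the 7. Its level was 407 FPKM in the control and 341, 358 and 300.4 FPKM at the rising doses, with log2 ratios of -0.26, -0.18 and -0.43 and a call at 0.5 µg/mL alone (q = 0.297, 0.448 and 0.0479 in the authors' deposited tables). Set against the median of all tested genes, its ratio was -0.18, -0.15 and -0.13. The annotation has another gene, YDR157W, overlapping RPA14, the only such case among the 41, and since strand handling is not given in the sources used here reads of the pair cannot be told apart. The summed level of the 7 was 69.3%, 65.8% and 56.3% of the control.

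Of the 10 polymerase III subunits, 6 were called lower at each lower dose and all 10 at the highest. Their log2 ratios at the highest dose still ranged from -1.37 to -0.56. RPO31 (YOR116C, chrXV:539763-544145, minus strand), the largest subunit, was at 68.4 FPKM in the control and 44.9, 41.5 and 33.3 FPKM at the rising doses, with log2 ratios of -0.61, -0.72 and -1.04 (q = 0.00558, 0.000329 and 0.000273 in the authors' deposited tables). RET1 (YOR207C, chrXV:730008-733457, minus strand), the second largest, was at 119 FPKM in the control and 101, 101 and 76.5 FPKM at the rising doses. Its log2 ratios were -0.24, -0.23 and -0.63, and it passed only at the top dose (q = 0.409, 0.372 and 0.00702 in the authors' deposited tables). The large subunits of polymerase III therefore had unlike values at each dose, where those of polymerase I were close to each other.

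Among the smaller subunits, RPC17 (YJL011C, chrX:414285-414770, minus strand), a stalk subunit that contacts Brf1, had the lowest ratio of all 24 subunit genes at 0.5 µg/mL. Its level was 132 FPKM in the control and 77.6, 58.8 and 50.8 FPKM at the rising doses, its log2 ratios were -0.76, -1.16 and -1.37 (q = 0.000608, 0.000329 and 0.000273 in the authors' deposited tables), and only 38.8% of the control level was left. At 0.5 µg/mL it ranked 176 from the lowest log2 ratio among 5047 tested genes. RPC31, RPC82 and RPC34 form the heterotrimer that polymerase III needs for initiation, and their values were unlike. RPC31 was at 302 FPKM in the control and 196, 168 and 123 FPKM at the rising doses and fell throughout, by log2 ratios of -0.62, -0.84 and -1.29 (q = 0.00161, 0.000329 and 0.000273 in the authors' deposited tables). RPC82 fell at every dose as well (-0.50, -0.53 and -0.75). RPC34, the subunit that meets TFIIIB, was at 237 FPKM in the control and 213, 201 and 160.5 FPKM at the rising doses. It had log2 ratios of -0.16, -0.24 and -0.56 and was called at 0.5 µg/mL only (q = 0.58, 0.306 and 0.00897 in the authors' deposited tables).

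RPC37 and RPC53, the TFIIF-like pair of polymerase III that also serves termination, had log2 ratios of -0.43, -0.58 and -0.97 and -0.23, -0.26 and -0.72. RPC37 was called at each dose, while RPC53, at 139.6 FPKM in the control and 119, 116 and 84.2 FPKM at the rising doses, was called only at the top dose (q = 0.393, 0.264 and 0.000506 in the authors' deposited tables). RPC11, the zinc ribbon subunit for RNA cleavage and reinitiation, was called at every dose with log2 ratios of -0.40, -0.39 and -0.64. RPC25, the other stalk subunit, was at 198 FPKM in the control and 159, 161 and 134 FPKM at the rising doses. Its log2 ratios were -0.31, -0.29 and -0.56, and it passed at the top dose (q = 0.149, 0.147 and 0.00248 in the authors' deposited tables). Set against the median of all tested genes, its ratio was -0.24, -0.27 and -0.26. The 4 subunits called only at the highest dose were thus RET1, RPC53, RPC34 and RPC25. The summed level of the 10 was 75.6%, 71.9% and 57.6% of the control.

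Subunits used by more than 1 enzyme had fewer calls at the lower doses. RPC40 and RPC19, which polymerases I and III share as the assembly platform, had log2 ratios of -0.33, -0.42 and -0.57 and -0.41, -0.46 and -0.66 and fell at 0.5 µg/mL only. The level of RPC40 was 619.7 FPKM in the control and 492, 460.5 and 417 FPKM at the rising doses (q = 0.25, 0.0863 and 0.022 in the authors' deposited tables). RPC19 was at 486 FPKM in the control and 365, 353 and 306 FPKM at the rising doses (q = 0.134, 0.0782 and 0.0138 in the authors' deposited tables). The 5 genes shared with polymerase II gave a mixed picture. RPB8 had log2 ratios of -0.57, -0.61 and -0.66 and was called at every dose (q = 0.00879, 0.00358 and 0.00318 in the authors' deposited tables), with levels of 828 FPKM in the control and 558, 542 and 522 FPKM at the rising doses. RPO26, which encodes the Rpb6 subunit, was also called at each dose (-0.46, -0.49 and -0.63), at 0.01 µg/mL barely so (q = 0.0496 in the authors' deposited table). RPB5, part of the jaw that grips DNA, was at 662 FPKM in the control and 528, 529 and 439 FPKM at the rising doses. It fell at the top dose only, with log2 ratios of -0.33, -0.32 and -0.59 (q = 0.192, 0.182 and 0.0107 in the authors' deposited tables). RPB10, a small zinc-binding subunit with the highest FPKM of the 41, has a gene of 213 bp. RPB10 was at 3111 FPKM in the control and 2483, 2488 and 2178 FPKM at the rising doses. It also fell at the top dose only (-0.33, -0.32 and -0.51, q = 0.133, 0.124 and 0.0117 in the authors' deposited tables). Relative to the median of all tested genes, RPB10 was at -0.25, -0.29 and -0.20. The 7 shared subunits had a median of -0.26, -0.40 and -0.28 on that scale, not lower at the top dose than at the middle dose.

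RPC10, the small zinc-binding subunit also named RPB12, was the only one of the 24 subunit genes with no call at any dose. Its level was 1548 FPKM in the control and 1238, 1441 and 1509 FPKM at the rising doses, and its log2 ratios were -0.32, -0.10 and -0.03 (q = 0.138, 0.701 and 0.914 in the authors' deposited tables). Its last ratio lay above the median of all tested genes by 0.27, while the other 23 subunit genes lay below it. Its nearest ratio among them was that of RPA14, at -0.43.

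Set position by position, RPA190 and RPO31 had log2 ratios below that of RPO21 at every dose. Of the 7 genes found only in polymerase II, RPO21 had the highest log2 ratio at each dose, so other positions are given too. RPO21, the largest subunit of polymerase II, was at 108 FPKM in the control and 130.5, 140.3 and 106 FPKM at the rising doses. It was not called at any dose, with log2 ratios of 0.28, 0.39 and -0.02 (q = 0.394, 0.137 and 0.953 in the authors' deposited tables), against -0.63, -0.79 and -1.23 for RPA190 and -0.61, -0.72 and -1.04 for RPO31. In the control RPA190 mRNA stood above RPO21, at 1.48 times its FPKM, and at 0.5 µg/mL below it, at 0.639 times. RPO31 stood at 0.636 times the FPKM of RPO21 in the control and at 0.315 times at 0.5 µg/mL. At the Rpb9 position, RPA12, RPC11 and RPB9 had log2 ratios of -0.61, -0.65 and -0.63, -0.40, -0.39 and -0.64 and -0.37, -0.39 and -0.57, with close values at 0.5 µg/mL and a lower RPA12 at the lower doses. At the Rpb4 position the order was otherwise, since at 0.5 µg/mL RPC17 had -1.37, RPA14 -0.43 and RPB4 -0.30. The second largest subunits RPA135, RET1 and RPB2 had -1.26, -0.63 and -0.40 at that dose. RPA43, RPC25 and RPB7, at the Rpb7 position, had -1.02, -0.56 and -0.37.

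Of 7 matching pairs, the polymerase I gene had the lower log2 ratio in 6, 6 and 4 at the rising doses. The pair against this order at every dose was RPA14 with RPC17, joined at 0.5 µg/mL by RPA12 with RPC11 and RPA49 with RPC37. Small differences occurred in both directions. RPA12 and RPC11 had -0.63 and -0.64 at 0.5 µg/mL. RPA190 and RPO31 had -0.63 and -0.61 at 0.01 µg/mL, and RPA49 and RPC37 had -0.60 and -0.58 at 0.1 µg/mL. Over all tested genes, 15.4%, 20.4% and 38.9% were called lower at the rising doses. In the 7 genes found only in polymerase II, 0, 1 and 1 fell (0%, 14.3% and 14.3%) and 0 rose, with median log2 ratios of -0.15, -0.03 and -0.34. The gene called was RPB9. Differences between the enzymes were not tested, and a gene not called is not shown to be unchanged.

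**Figure D4:**
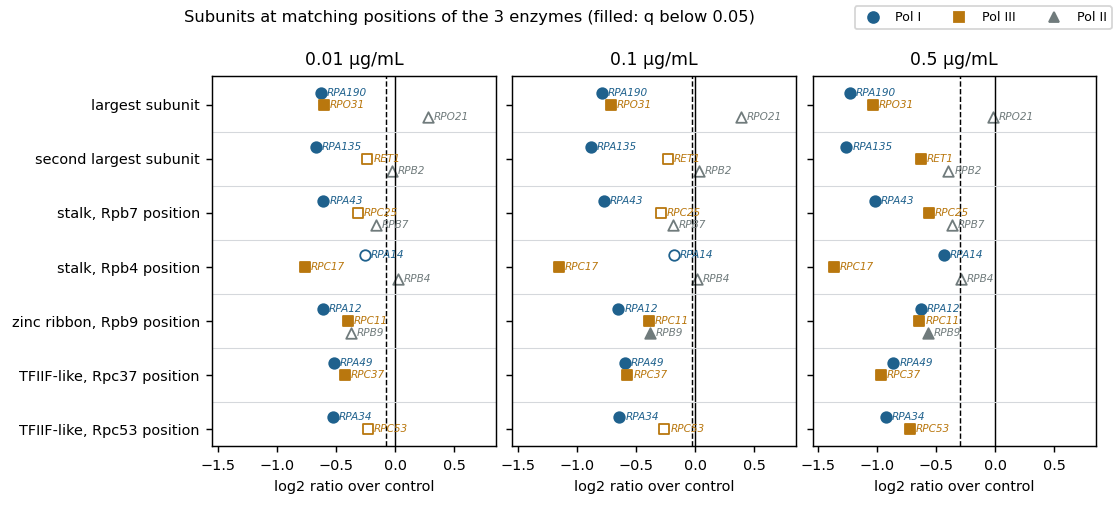
Log2 ratios over control of genes at 7 matching positions of polymerases I (circles) and III (squares) at 3 doses, where filled symbols have a q below 0.05. Polymerase II genes (triangles) are shown at all but the TFIIF-like positions. The dashed line is the median of all tested genes, and RPA190 and RPO31 lie to the left of RPO21 at each dose (-1.23, -1.04 and -0.02 at 0.5 µg/mL). RPO21 is the highest of the polymerase II genes at each dose.

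Among the factors of polymerase I, the core factor genes had the lowest median. The core factor (Rrn6, Rrn7 and Rrn11) binds next to the start of the rRNA gene. RRN11 (YML043C, chrXIII:190244-191767, minus strand) was at 48.3 FPKM in the control and 21.9, 19.1 and 18.5 FPKM at the rising doses. Its log2 ratios of -1.14, -1.34 and -1.38 (q = 0.000608, 0.000329 and 0.000273 in the authors' deposited tables) were the lowest of all 41 members at each dose. At 0.01 µg/mL it ranked 51 from the lowest among 5049 tested genes. RRN7, a relative of TFIIB, was at 33.3 FPKM in the control and 17.7, 15.3 and 15.6 FPKM at the rising doses, with log2 ratios of -0.91, -1.11 and -1.08 (q = 0.000608, 0.000329 and 0.000273 in the authors' deposited tables). RRN6 also fell, with log2 ratios of -0.46, -0.62 and -0.78 (q = 0.0202, 0.000886 and 0.000273 in the authors' deposited tables). The summed level of the 3 genes was 56.4%, 49.8% and 47.3% of the control. These mRNAs are scarce, at 33.3 to 48.3 FPKM in the control.

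RRN3, whose product makes polymerase I competent to initiate, was at 96.9 FPKM in the control and 77.4, 71.5 and 54.0 FPKM at the rising doses. Its log2 ratios were -0.32, -0.43 and -0.84, and it fell at 0.1 and 0.5 µg/mL (q = 0.161, 0.031 and 0.000273 in the authors' deposited tables). The upstream activating factor, which binds the distal element of the rDNA promoter together with histones, behaved otherwise. RRN5 was the 1 member called higher: its level was 21.8 FPKM in the control and 27.5, 30.8 and 21.9 FPKM at the rising doses, and its log2 ratios were 0.34, 0.50 and 0.01 (q = 0.179, 0.02 and 0.966 in the authors' deposited tables). That rise does not pass at a q below 0.01 or with a minimum of 1.5-fold. RRN10 was not called at any dose (-0.07, 0.01 and -0.43, q = 0.866, 0.975 and 0.0749 in the authors' deposited tables). RRN9 and UAF30 fell at 0.5 µg/mL only. RRN9 was at 90.9 FPKM in the control and 73.6, 75.1 and 59.2 FPKM at the rising doses, with log2 ratios of -0.31, -0.27 and -0.61 (q = 0.156, 0.184 and 0.00136 in the authors' deposited tables). UAF30 was at 63.2 FPKM in the control and 51.1, 52.1 and 42.1 FPKM at the rising doses, with log2 ratios of -0.31, -0.27 and -0.58 (q = 0.221, 0.228 and 0.0058 in the authors' deposited tables). The summed level of these 4 was 89.2%, 93.4% and 71.5% of the control.

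Of the 8 genes of TFIIIC, BRF1 and BDP1, 0 were called at 0.01 or 0.1 µg/mL. At these doses 24.2% and 38% of all tested genes were called in either direction. The smallest q among these 8, 0.0514 in the authors' deposited table, was that of BDP1 at 0.1 µg/mL. The TATA-binding protein gene and TFIIIA, which also serve polymerase III, were counted in other lists and were called lower at both doses by the authors' Cuffdiff q. TFIIIC has 6 subunits, and its genes had log2 ratios between -0.19 and 0.01 at 0.01 µg/mL and between -0.16 and 0.09 at 0.1 µg/mL. At 0.5 µg/mL TFC4, TFC6, TFC7 and TFC8 fell, with log2 ratios of -0.61, -0.40, -0.51 and -0.40, while TFC1 (-0.37, q = 0.0667 in the authors' deposited table) and TFC3 (-0.31, q = 0.132 in the authors' deposited table) did not pass. The median of the 6 at that dose, -0.40, was -0.09 relative to all tested genes, so that these falls were near the general shift. TFC4, the subunit that recruits TFIIIB, had the largest of them. Its level was 21.4 FPKM in the control and 18.8, 19.1 and 13.9 FPKM at the rising doses (q = 0.455, 0.505 and 0.000951 in the authors' deposited tables). TFC6, which works with Tfc3 at the B box of tRNA genes, was at 38.1 FPKM in the control and 38.2, 39.7 and 28.8 FPKM at the rising doses (q = 0.996, 0.819 and 0.0418 in the authors' deposited tables). The remaining subunits had levels in the same low range. TFC7 was at 67.6 FPKM in the control and 64.6, 70.3 and 47.1 FPKM at the rising doses (q = 0.845, 0.824 and 0.00659 in the authors' deposited tables). TFC8 was at 39.2 FPKM in the control and 38.1, 38.8 and 29.6 FPKM at the rising doses (q = 0.918, 0.969 and 0.0464 in the authors' deposited tables). TFC3, the large B box subunit with the smallest change of the 6 at the top dose, was at 24.1 FPKM in the control and 24.2, 25.5 and 19.3 FPKM at the rising doses (q = 0.988, 0.725 and 0.132 in the authors' deposited tables).

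TFIIIB holds polymerase III at its genes and consists of Brf1, Bdp1 and the TATA-binding protein. BRF1 was at 56.2 FPKM in the control and 60.1, 68.1 and 51.7 FPKM at the rising doses, with log2 ratios of 0.10, 0.28 and -0.11 and no call (q = 0.755, 0.178 and 0.647 in the authors' deposited tables). BDP1 was at 73.9 FPKM in the control and 85.6, 97.1 and 78.0 FPKM at the rising doses, with log2 ratios of 0.21, 0.40 and 0.08 and no call either (q = 0.393, 0.0514 and 0.761 in the authors' deposited tables). SPT15, the gene of the TATA-binding protein that all 3 polymerases use, which was named after its values were seen, fell at each dose, with log2 ratios of -0.52, -0.55 and -0.66 (q = 0.0427, 0.0254 and 0.00793 in the authors' deposited tables). The 8 genes of TFIIIC and TFIIIB had median log2 ratios of -0.02, 0.06 and -0.38, and the sign of the first depends on scaling, since it was 0.06 relative to the median of all tested genes. MAF1, the repressor of polymerase III, was at 115 FPKM in the control and 127, 128 and 101 FPKM at the rising doses. Its log2 ratios were 0.15, 0.16 and -0.17 with no call (q = 0.592, 0.499 and 0.449 in the authors' deposited tables), and at 0.5 µg/mL its ratio was 0.13 above the median of all tested genes.

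In levels per length, mRNAs of subunits stood mostly above those of factors. In the control the 24 subunit genes ranged from 68.4 FPKM (RPO31) to 3111 FPKM (RPB10) with a median of 366 FPKM, and the 17 other genes from 21.4 FPKM (TFC4) to 115 FPKM (MAF1) with a median of 48.3 FPKM. The mRNAs of 1 enzyme spanned 4.10-fold for those found only in polymerase I and 8.33-fold for those found only in polymerase III. The span at 0.5 µg/mL was 5.14-fold and 10.9-fold, from RPA190 (67.4 FPKM) to RPA12 (347 FPKM) and from RPO31 (33.3 FPKM) to RPC11 (363 FPKM). RPA190 stood at 2.33 times the FPKM of RPO31 in the control and at 2.03 times at 0.5 µg/mL. Among the second largest subunits, RPA135 stood at 2.73 times RET1 in the control and at 1.76 times at 0.5 µg/mL. The shared subunit RPB10 was 19.5 times RPA190 in the control and 32.3 times at 0.5 µg/mL. These are ratios of pooled levels, with no replicate spread. Gene lengths differ widely, at 4995 bp for RPA190, 4383 bp for RPO31, 378 bp for RPA12, 333 bp for RPC11 and 213 bp for RPB10. An effect of length on these levels was not tested.

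**Figure D5:**
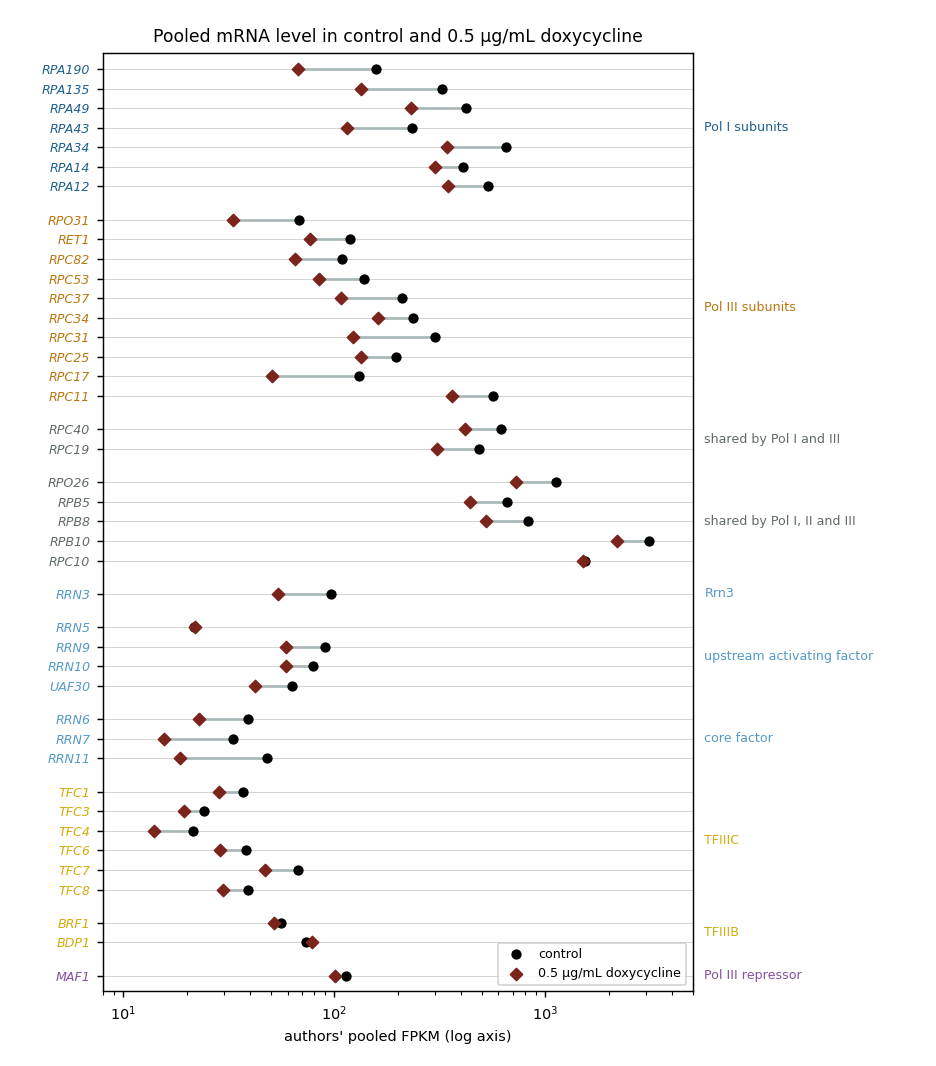
Pooled FPKM of each member on a log axis in the control (black) and at 0.5 µg/mL doxycycline (red diamonds), ordered by role and joined by a line. RPB10 is highest (3097 and 2178 FPKM), and TFC4 and RRN7 are among the lowest at 0.5 µg/mL (13.9 and 15.6 FPKM).

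The 23 members with PAC in the window had median log2 ratios of -0.41, -0.46 and -0.75 and fell in 11, 12 and 22 cases. The 18 without it had -0.26, -0.13 and -0.51 and fell in 6, 6 and 11 cases. These values depend on the window: with 600 bases before the start codon, a window chosen after the data were seen, the 15 without PAC had -0.07, -0.01 and -0.40 and fell in 3, 3 and 8 cases, and the 26 with it had -0.45, -0.51 and -0.69 and fell in 14, 15 and 25. Roles and motif go together here, and within the 24 subunit genes the medians were closer, at -0.46, -0.55 and -0.81 for the 16 with PAC and -0.43, -0.44 and -0.63 for the 8 without. In the 600-base window these medians were -0.48, -0.55 and -0.69 for the 20 with PAC. The 4 subunit genes without it there had -0.36, -0.36 and -0.58. Among the lowest ratios of the 41 at 0.5 µg/mL, RRN11, RPC31, RPA135 and RPA190 had PAC in the window and RPC17 and RRN7 did not. RPA14 had both motifs and the smallest fall of the 23 subunit genes called at 0.5 µg/mL. Over all measured protein-coding genes, 26.9%, 34.5% and 54.4% of those with PAC were called lower, against 12.7%, 17.0% and 35.3% of those without. Motif matches are a description of sequence, and their part in these changes was not tested.

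Neighbours on the genome went both ways. Of the members, 28 have a neighbour read in the opposite direction from the other side of their upstream region, and 23 of these neighbours were measured. Among these are RPA43 and RPA190, members that face each other. The 21 other neighbours were called lower in 3, 6 and 9 cases, or 14.3%, 28.6% and 42.9%, where 15.4%, 20.4% and 38.9% of all tested genes were. They were called higher in 4, 8 and 2 cases, or 19.05%, 38.1% and 9.52%, where 8.75%, 17.6% and 7.49% of all tested genes were. The neighbours called lower at every dose were 3. DBP7, a helicase gene of 60S assembly that faces RPC37, had log2 ratios of -0.86, -1.13 and -1.38. PZF1, the gene of TFIIIA, which 5S rRNA transcription needs, lies 234 bp from RPO26 and had -0.73, -0.71 and -0.86. CNS1, an Hsp90 co-chaperone gene that faces RPB5, had -0.43, -0.65 and -0.88. Those called higher at every dose were 2, the phosphatase gene PTP2, which faces RET1, at 0.67, 1.13 and 0.94, and UFD1, of ubiquitin-dependent degradation, which faces TFC4, at 0.58, 0.87 and 0.62.

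Other genes of these pathways were counted from lists that were chosen with earlier results of these data known. Over all tested genes, 15.4%, 20.4% and 38.9% were called lower at the rising doses and 8.75%, 17.6% and 7.49% higher. Of 10 other factors of rDNA and polymerase I, 3, 4 and 8 fell (30%, 40% and 80%) and 0 rose, with median log2 ratios of -0.23, -0.36 and -0.62. The lowest in that list was FOB1, of the rDNA replication fork barrier, at -0.54, -0.72 and -1.08 (q = 0.00246, 0.000329 and 0.000273 in the authors' deposited tables). Of 11 other polymerase III factors and kinases acting on Maf1 or TFIIIB, 1, 1 and 2 fell and 0, 1 and 0 rose. The shares that fell, 9.09%, 9.09% and 18.2%, were below those of all tested genes. CKB2, a subunit of casein kinase 2, fell at the top dose alone, and was named after its values were seen. The fall at every dose was that of PZF1 (q = 0.000608, 0.000615 and 0.000273 in the authors' deposited tables), and the rise was that of NHP6B, a DNA-bending protein gene with a close paralog, NHP6A, at the middle dose (0.47, q = 0.0236 in the authors' deposited table).

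Of 8 polymerase assembly and import factors, 1, 3 and 5 fell (12.5%, 37.5% and 62.5%) and 1, 1 and 0 rose, where 15.4%, 20.4% and 38.9% of all tested genes fell. The lowest there at 0.5 µg/mL was BUD27 (-0.90), which acts in assembly of all 3 enzymes. The gene that rose was IWR1, an import factor of polymerase II, at 0.46, 0.78 and 0.37 (q = 0.0188, 0.000329 and 0.0819 in the authors' deposited tables). Of 18 general initiation factors of polymerase II, 1, 1 and 5 fell (5.56%, 5.56% and 27.8%), below the shares of all tested genes, and 0 rose. The lowest was RAD3, a TFIIH helicase gene that also serves DNA repair, at -0.42, -0.61 and -0.84. Transfer RNA genes, which polymerase III transcribes, had 47 entries in the tables, and 0 of the 20, 25 and 23 tested were called in either direction by the authors' Cuffdiff q. Libraries of polyA RNA are not made to measure them.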

How the data were processed

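PolyA RNA of 12 samples in 4 groups of 3 was measured, and the labels gave the groups. The submitters' processing notes name the tools FastQC, Bowtie2 and Cuffdiff and the build R64. For versions, settings, strand handling and annotation the sources used here give nothing. Deposited tables give pooled levels for the control, named WT in the headers, and 1 dose. The authors made these levels before deposit with Cuffdiff, whose usual FPKM unit was inferred from the column names, since the tables do not state it. The authors' deposited log2 fold changes equal the log2 ratio of the levels computed here, and the deposited q-values were used as they stand. Unadjusted p-values were not used here. Each table holds 5085 genes, and 3 lines of each hold no values. A gene counted as tested where both levels were above 0 and its q was below 1. Control columns of the 0.1 and 0.5 µg/mL tables were 0.997 and 0.996 times that of the 0.01 µg/mL table, from which control levels are printed unless 2 levels of 1 dose are compared. Scaling thus differed slightly by table, and no difference between doses was tested.

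Whether the 3 samples of a group are separate cultures is not given in the labels, so q-values reflect a spread that may be technical only. All 41 members matched R64 by gene ID, and sequences came from the RefSeq R64 assembly. Members and lists were chosen with earlier results of these data known. All members may be named. Full values were fixed for the largest and smallest change of each role, every rise, calls at 0.5 µg/mL only, MAF1, RRN3, BRF1 and the 2 large subunits. In each other list the rises and the lowest ratio are named. RPO21, RPB2, RPB4, RPB7, SPT15 and the neighbouring genes fall outside this rule and were chosen after their values were seen. The motif and calling steps were tested on simulated data. Python 3.11.15, pandas 2.3.3, NumPy 2.4.6 and matplotlib 3.10.9 were used.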

Additional observations from a re-analysis of the deposited data

How the results depend on the processing

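Counts of members called depend on the minimum change. With at least 2-fold, 1, 3 and 8 members were lower at 0.01, 0.1 and 0.5 µg/mL. With at least 1.5-fold the count at 0.01 µg/mL was 9, and with q below 0.01 it was 8. The 1 rise at 0.1 µg/mL went to 0 under each of these. Shares of all tested genes were not computed under these settings, so these counts have no background beside them. The median log2 ratio of all members relative to the median of all tested genes was -0.25, -0.29 and -0.32, and with columns scaled to the same sum it was -0.21, -0.28 and -0.41. A pseudocount of 1 FPKM gave -0.62 at 0.5 µg/mL. Polymerase III initiation factors at 0.01 µg/mL had medians of 0.0561 relative to all genes and 0.10 with equal sums. Relative to all genes, uncalled log2 ratios changed sign for RRN10 (0.0018), TFC1 (0.0283), TFC7 (0.0088) and TFC8 (0.0341) at 0.01 µg/mL, for TFC1 (0.0212) and TFC8 (0.0172) at 0.1 µg/mL, and for RPC10 (0.27), BRF1 (0.19) and MAF1 (0.13) at 0.5 µg/mL. A minimum mean level of 10 FPKM removed no member, since the lowest level of any was 13.9 FPKM. That setting could therefore change no count or median. Motif windows were varied after the data were seen: with 600 bases before the start codon PAC was in 5 of 7 shared subunits, and in polymerase II subunits it was in 2, against 0 with 250 bases and 1 in the main window.

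No paired analysis was possible because the tables hold 1 pooled level per group. Leaving out single samples was therefore not run. The depth is unknown, so the precision of the scarce mRNAs cannot be stated. FPKM are relative levels, and the general shift at 0.5 µg/mL cannot be told apart from scaling.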
